A study of Mus musculus with 72 samples.

Results

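Mt1, Mt2, Slc30a1, Slc30a10 and Slc39a14 are 5 mouse genes that bind or move zinc and related metals in the liver. They were chosen by symbol, and each matched 1 line of a liver count table that lists 50307 genes with complete lines. All 5 held enough counts to be among the 14954 genes tested. The libraries came from livers of male and female DBA/2J (DBA) and C57BL/6J (B6) mice. Each mouse group received a Western diet low in isoleucine, high in isoleucine or with the control content. All groups shared the Western diet, kept for 12 weeks, and an overnight fast of 16 h, so neither the fat-rich diet nor fasting has an untreated comparison here. The age field gives 18 weeks for every library. The diets began at 6 weeks of age according to the design text and at 18 weeks according to the treatment text. Strain, sex and diet make 12 groups of 6 libraries, and a strain-sex combination is called a class below.

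Metallothioneins are small, cysteine-rich proteins that hold zinc and copper in the cytosol. When free zinc rises, the transcription factor MTF1 binds metal response elements in the promoters of Mt1, Mt2 and Slc30a1 and activates them, and glucocorticoids and interleukin 6 also induce both metallothioneins in liver. Slc30a1 encodes ZnT1, which exports zinc across the plasma membrane. Slc30a10 carries a zinc transporter name, but its protein is known chiefly for exporting manganese, from hepatocytes into bile. Slc39a14 encodes ZIP14, which brings zinc, manganese and iron not bound to transferrin into hepatocytes.

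The libraries held between 13.0 M and 51.1 M expected counts, with a median of 24.1 M (mega). Levels are given as CPM, counts divided by the library size in M after TMM scaling. Over the 12 groups the lowest correlation of a library with the median of the rest of its group, across genes, was 0.971. Hepatocyte markers were abundant, summing to between 71000 and 153000 CPM over the 7 of 8 matched, whereas each of 4 exocrine pancreas markers stayed below 1 CPM in every library. No batch is given in the labels, nor is it stated that libraries of a group are separate animals, so the p-values reflect differences among libraries that could be partly technical. Every library title holds a number that occurs on 2 libraries of the same group, with 3 numbers per group, and the labels do not say what the number marks. Libraries that share a number resembled each other (consensus correlation 0.244 across genes), and results that lose their call when the number is used as a block are named below.

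Mt1 (ENSMUSG00000031765) lies on chromosome 8 from 94179082 to 94180327 (GRCm38, plus strand). Mt2 (ENSMUSG00000031762) lies upstream of it on the same strand, from 94172664 to 94173568, with 5513 bases between the genes. Slc30a1 (ENSMUSG00000037434) lies on chromosome 1 from 191906767 to 191913247 and Slc30a10 (ENSMUSG00000026614) on the same chromosome from 185454848 to 185468762, both on the plus strand. Slc39a14 (ENSMUSG00000022094) lies on chromosome 14 from 70303469 to 70351425 on the minus strand. Antisense genes overlap Mt2 (Gm45774, at most 0.432 CPM), Slc30a1 (1700034H15Rik, 0.173 to 1.13 CPM) and Slc30a10 (Gm2061, 0.498 to 7.5 CPM). The labels name stranded kits but not the strand setting of the counting, so reads of Slc30a10 and of Gm2061 cannot be told apart here. No stretch of 50 bases of the annotated transcripts of Mt1, Mt2, Slc30a1 or Slc30a10 occurs in the transcripts of another gene, and 0.187% of such stretches of Slc39a14 do.

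The promoters of 4 members are shown because MTF1 acts on Mt1, Mt2 and Slc30a1 through metal response elements. Slc30a10, not named among those targets above, is shown beside them. RefSeq (GRCm38.p6) gives 250 bases before and 50 after each start, on the plus strand at chr8:94178839-94179138 for Mt1, chr8:94172368-94172667 for Mt2, chr1:191906531-191906830 for Slc30a1 and chr1:185454598-185454897 for Slc30a10. Capitals mark the core of the metal response element, searched as TGCACNC or TGCGCNC on both strands.
Mt1: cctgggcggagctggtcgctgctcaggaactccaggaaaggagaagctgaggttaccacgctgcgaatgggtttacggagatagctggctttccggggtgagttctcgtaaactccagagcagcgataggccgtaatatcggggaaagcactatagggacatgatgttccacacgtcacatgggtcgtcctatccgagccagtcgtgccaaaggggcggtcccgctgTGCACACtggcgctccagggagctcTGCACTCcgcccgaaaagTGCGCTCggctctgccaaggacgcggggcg
Mt2: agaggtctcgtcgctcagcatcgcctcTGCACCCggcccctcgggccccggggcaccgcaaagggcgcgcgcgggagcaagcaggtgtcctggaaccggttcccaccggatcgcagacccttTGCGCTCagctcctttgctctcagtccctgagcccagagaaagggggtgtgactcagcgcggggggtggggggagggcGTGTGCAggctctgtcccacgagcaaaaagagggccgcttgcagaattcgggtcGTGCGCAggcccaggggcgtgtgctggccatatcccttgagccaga
Slc30a1: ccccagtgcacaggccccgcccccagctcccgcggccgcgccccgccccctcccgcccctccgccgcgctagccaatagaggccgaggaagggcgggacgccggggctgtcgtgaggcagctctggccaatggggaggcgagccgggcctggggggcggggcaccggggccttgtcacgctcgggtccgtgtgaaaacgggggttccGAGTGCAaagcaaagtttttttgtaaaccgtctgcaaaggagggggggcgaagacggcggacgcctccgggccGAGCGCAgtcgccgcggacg
Slc30a10: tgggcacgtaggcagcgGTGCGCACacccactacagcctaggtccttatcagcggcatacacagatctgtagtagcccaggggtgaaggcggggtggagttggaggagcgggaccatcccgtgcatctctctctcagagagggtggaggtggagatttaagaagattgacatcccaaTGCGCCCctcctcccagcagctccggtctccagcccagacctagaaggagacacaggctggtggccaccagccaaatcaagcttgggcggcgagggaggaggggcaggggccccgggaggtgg
Mt2 held 4 such cores, Mt1 held 3, Slc30a10 held 3, of which 2 overlap on opposite strands, and Slc30a1 held 2. Among 32851 mouse promoters of this length, 25.7% held at least 1 core, 7.11% at least 2, 1.97% at least 3 and 0.517% at least 4. The antioxidant core TGACNNNGC was found once each in Mt2 and Slc30a1, against 12.4% of all promoters. The STAT site TTCNNNGAA, found in 8.3% of all promoters, had no match in the 4 windows. Both of these were likewise searched on either strand, and a match describes letters, not occupancy. The counts depend on the start used. The Mt2 window ends at 94172667 and the annotated gene begins at 94172664, so its RefSeq start lies upstream of the annotated one.

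Averaged over the 72 libraries, both metallothioneins were among the most abundant transcripts, and they were among the most variable. In DBA the medians were 219 CPM for Mt2 and 255 CPM for Mt1, against 35.8 and 62.0 CPM in B6. Per kilobase of merged annotated exons, Mt2 averaged 271 CPM and ranked 178 of 14954 genes, and Mt1 averaged 156 CPM per kilobase and ranked 304. The merged exons of Mt1 span the whole gene, which lowers its value per length. Slc39a14 averaged 15.4 CPM per kilobase, Slc30a10 averaged 6.26 and Slc30a1 averaged 5.34. Mt2 spanned 2.42 to 729 CPM over the 72 libraries and Mt1 6.97 to 863 CPM, whereas Slc39a14 spanned 91.6 to 253 CPM. Strain accounted for 53.7% of the variance of log2 CPM of Mt1, 57.1% of that of Mt2 and 50.3% of that of Slc30a1, against a median of 10.5% over all genes tested. For Slc30a10 strain accounted for 31.9% of the variance. Diet accounted for 23.3% of it, against a median of 4.73%, and sex for 14.2%, against a median of 4.44%. The standard deviation within groups was 0.82 on the log2 scale for Mt1 and 0.87 for Mt2, against a median of 0.29, so libraries of the same group differed widely in metallothionein transcripts. Libraries that share a title number differed by a standard deviation of 0.70 for Mt1 and 0.73 for Mt2.

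**Figure D1:**
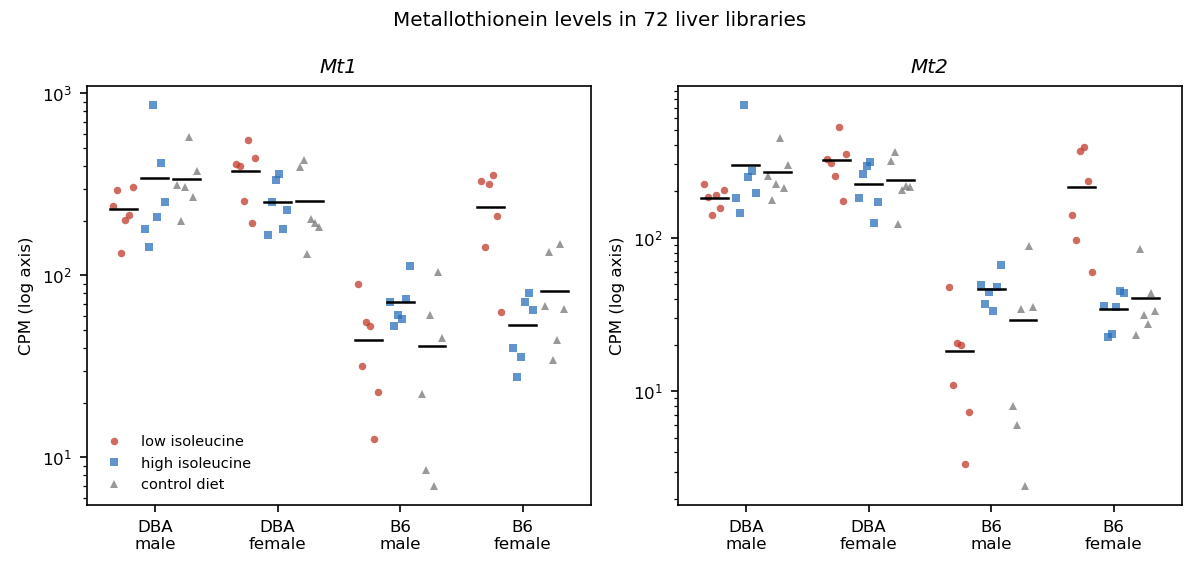
Level of Mt1 (left) and Mt2 (right) in CPM on a log axis for each of the 72 libraries, by strain and sex. Red circles are low isoleucine, blue squares high isoleucine and grey triangles the control diet, and black bars are means of 6 libraries. DBA libraries sit above most B6 libraries, and the B6 female low isoleucine libraries (Mt2 mean 214 CPM) reach into the DBA range.

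Low isoleucine raised Slc30a10, and of the 5 genes it was the one that passed the test in the mean of the 4 classes. The log2 fold change over the control diet was 0.69 ± 0.10 (SE, 24 libraries per diet, a 1.62-fold rise, edgeR quasi-likelihood test, adjusted p = 5.5e-08). In this comparison 37.8% of all genes tested passed, so 1 of 5 members is no larger a share than the background. In 3 classes every low isoleucine library lay above the control mean. In DBA males Slc30a10 had a lowest, median and highest level of 39.6, 58.9 and 70.4 CPM on low isoleucine, against 16.7, 22.4 and 34.7 CPM on the control diet. All 6 low isoleucine libraries lay above all 6 control libraries. The share of all genes that separate without overlap is not given, for this or the later comparisons. The log2 fold change of 1.26 ± 0.20 was the largest of the 4 classes (adjusted p = 3e-06, where 17.7% of genes passed).

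In DBA females the levels were 62.3, 68.3 and 86.7 CPM on low isoleucine and 33.4, 47.6 and 55.3 CPM on the control diet, again without overlap. The rise of Slc30a10 was 0.61 ± 0.19 in log2 units (adjusted p = 0.029, with 11.8% of genes passing). In B6 males they were 23.3, 34.7 and 42.7 CPM on low isoleucine and 15.9, 21.5 and 28 CPM on the control diet. The ranges overlapped, and all 6 low isoleucine libraries lay above the control mean of 21.2 CPM (0.66 ± 0.20, adjusted p = 0.035, with 5% of genes passing). In B6 females the levels were 26.6, 32.2 and 47.7 CPM on low isoleucine and 19.1, 27.7 and 40.0 CPM on the control diet, and the log2 fold change of 0.25 ± 0.19 did not pass the test (adjusted p = 0.40). The class effects were not shown to differ. Averaged over sexes, the strain difference, DBA minus B6, was 0.48 ± 0.19 (adjusted p = 0.21, 95% interval 0.10 to 0.87), and averaged over strains the sex difference, male minus female, was 0.53 ± 0.19 (adjusted p = 0.084). The sex difference passed without B6 female low isoleucine library 5 (0.60, adjusted p = 0.048) or without DBA male control library 2 (0.60, adjusted p = 0.045), and with sample quality weights in limma-voom (0.55, adjusted p = 0.040).

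The calls of Slc30a10 in B6 males and DBA females lay near the threshold, while the fold changes moved little. The adjusted p became 0.12 in B6 males and 0.083 in DBA females with the title number as a block, and 0.057 and 0.069 with libraries of the same number summed. Leaving out B6 male low isoleucine library 1, 2, 4 or 5 or control library 1, 4, 5 or 6 ended the B6 male call, with log2 fold changes of 0.57 to 0.69 and adjusted p-values of 0.053 to 0.10. Leaving out DBA female low isoleucine library 2 or control library 4, 5 or 6 ended that of DBA females, with log2 fold changes of 0.53 to 0.60 and adjusted p-values of 0.056 to 0.085. The mean of the 4 classes and the DBA male value passed in every refit. Cell type markers moved in the mean comparison as well, where 20% of all genes were lower and 17.8% higher. Kupffer cell markers were lower on low isoleucine in 5 of 7 and higher in 0. Their summed levels were 69.4 to 302 CPM on low isoleucine and 102 to 674 CPM on the control diet. Sinusoidal endothelium markers were higher in 4 of 6 and lower in 0, with sums of 164 to 267 CPM and 108 to 284 CPM on the same diets. Among hepatocyte markers Alb (0.20 ± 0.06) and Apoa1 (0.30 ± 0.10) were higher, Fabp1 (-0.46 ± 0.10) was lower and the others did not pass. The part of these markers in the result was not tested, and in whole liver more cells of a type and more RNA per cell cannot be told apart.

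**Figure D2:**
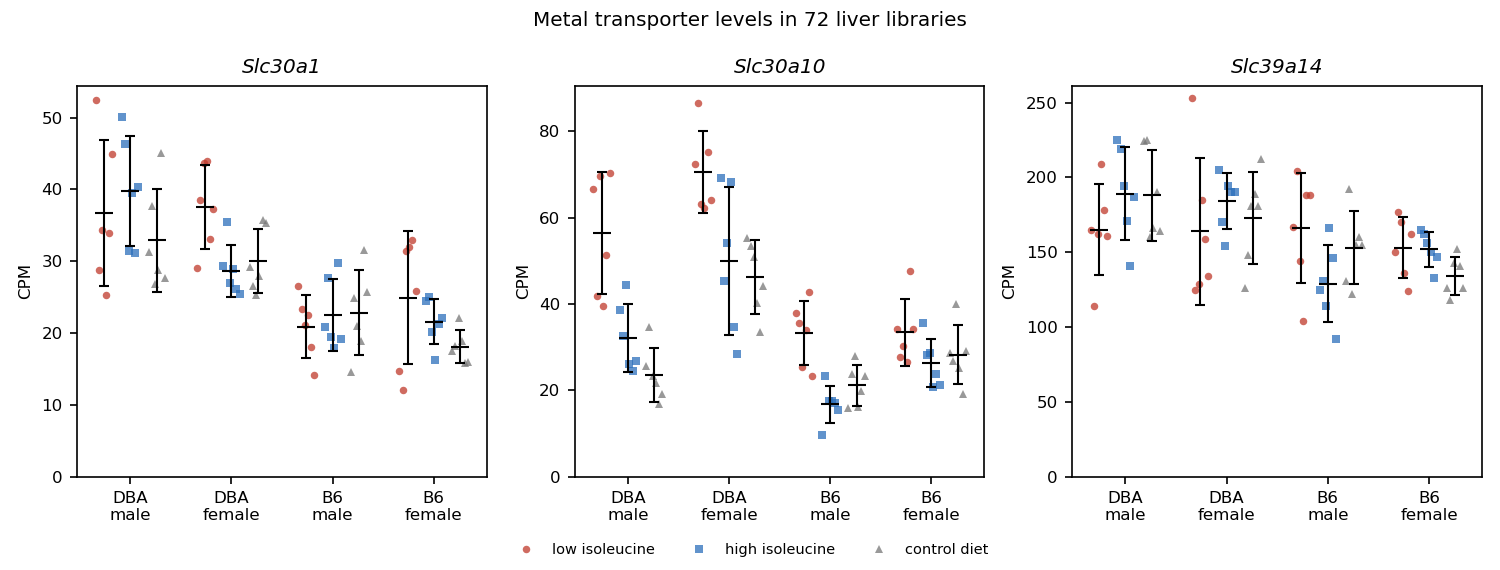
Level of Slc30a1, Slc30a10 and Slc39a14 in CPM for each library by class, with symbols as for the metallothioneins and black bars for the mean ± SD of 6 libraries. Slc30a10 on low isoleucine lies above all control libraries in DBA males and DBA females, and Slc39a14 stays between 91.6 and 253 CPM throughout.

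Low isoleucine raised both metallothioneins in B6 females, and in no other class did either pass the test. Mt2 had a lowest, median and highest level of 59.5, 186 and 387 CPM in B6 females on low isoleucine, against 23.2, 32.3 and 83.7 CPM on the control diet. All 6 low isoleucine libraries lay above the control mean of 40.4 CPM, and the ranges overlapped only because control library 2, at 83.7 CPM, exceeded low isoleucine library 6, at 59.5 CPM. Mt2 rose 5.29-fold, a log2 fold change of 2.40 ± 0.51 (adjusted p = 0.00045). Mt1 had 63.0, 265 and 354 CPM on low isoleucine and 34.1, 66.4 and 148 CPM on the control diet. It rose 2.88-fold (1.53 ± 0.46, adjusted p = 0.013), with 5 of 6 low isoleucine libraries above the control mean of 82.2 CPM. These 2 of 5 members stand against 20.8% of all genes that passed in B6 females.

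The B6 female values held without any single library: the Mt2 log2 fold change stayed between 2.15 and 2.75 and that of Mt1 between 1.37 and 1.78, and both passed each time. With libraries of the same title number summed, Mt2 passed with an adjusted p of 0.021 and Mt1 did not (1.52, adjusted p = 0.085). The share of counts from mitochondrially encoded genes was 8.48 to 15.1% in B6 females on low isoleucine and 7.94 to 11.8% on the control diet. Of all genes tested, 11.3% fell and 9.53% rose in B6 females. Infiltrating macrophage markers fell in 5 of 6 and rose in 0, with sums of 4.43 to 6.09 CPM on low isoleucine and 7.02 to 27.6 CPM on the control diet. Kupffer cell markers fell in 3 of 7 and rose in 0 (185 to 302 CPM and 239 to 674 CPM). The part of these shifts in the metallothionein result was not tested.

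In the other classes the metallothioneins moved in both directions and within wide spreads. In DBA males Mt2 had 141, 185 and 223 CPM on low isoleucine and 177, 237 and 448 CPM on the control diet (-0.56 ± 0.48, adjusted p = 0.47), and all 6 low isoleucine libraries lay below the control mean of 268 CPM. In DBA females Mt2 had 172, 315 and 521 CPM on low isoleucine and 122, 215 and 361 CPM on the control diet (0.43 ± 0.48, adjusted p = 0.63). In B6 males it had 3.35, 15.6 and 47.8 CPM on low isoleucine and 2.42, 21.1 and 87.8 CPM on the control diet (-0.64 ± 0.49, adjusted p = 0.52), and its direction turned without control library 5, which held 87.8 CPM (0.14, adjusted p = 0.92). Mt1 was at -0.55 ± 0.45 in DBA males, 0.55 ± 0.45 in DBA females and 0.11 ± 0.46 in B6 males, and the last turned negative without low isoleucine library 1 (-0.23) or control library 1 (-0.01), 2 (-0.10) or 4 (-0.11). Averaged over the 4 classes Mt1 was at 0.41 ± 0.23 (adjusted p = 0.15) and Mt2 at 0.41 ± 0.24 (adjusted p = 0.18). Without B6 male control library 5 both averages passed, with Mt1 at 0.54 (adjusted p = 0.047) and Mt2 at 0.60 (adjusted p = 0.032).

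The response of Mt2 to low isoleucine differed between the sexes in the average over strains, in the main fit. Averaged over strains, the male effect minus the female effect was -2.01 ± 0.49 on the log2 scale (adjusted p = 0.0067), in a comparison where 6.68% of genes passed, and it lay between -2.30 and -1.62 when single libraries were left out. The call was lost with the title number as a block in limma-voom (-1.57, adjusted p = 0.13) and with summed numbers (-1.93, adjusted p = 0.14). For Mt1 the same difference was -1.26 ± 0.45 (adjusted p = 0.079). It passed with DESeq2 (adjusted p = 0.048), with voom quality weights (adjusted p = 0.047) and without B6 male low isoleucine library 1 (-1.43) or B6 male control library 2 (-1.37) or 4 (-1.37). Within B6, a contrast chosen after seeing the data, the sex difference of Mt2 was -3.04 ± 0.70 (adjusted p = 0.018, with 0.829% of genes passing), and it failed without B6 male control library 5 (-2.26, adjusted p = 0.093), with the block (-2.19, adjusted p = 0.34) and with summed numbers (adjusted p = 0.31). Within DBA the sex difference was not tested on its own, and Mt2 was at -0.56 ± 0.48 in males and 0.43 ± 0.48 in females. The strain difference, DBA minus B6, passed for none of the 5 genes, with 1.39% of all genes passing. It was -0.95 ± 0.48 for Mt2 (adjusted p = 0.36), -0.82 ± 0.45 for Mt1 (adjusted p = 0.40) and -0.29 ± 0.14 for Slc39a14 (adjusted p = 0.34). At an unadjusted p under 0.05, 2 of the 5 passed, Slc30a10 and Slc39a14, and DESeq2 called 0. Among females alone, also a contrast chosen after seeing the data, the strain difference passed for none of the 5, with 0% of all genes passing. It was -1.98 ± 0.68 for Mt2 (edgeR, adjusted p = 0.40) and -0.97 ± 0.64 for Mt1 (adjusted p = 0.72). The rise in B6 females was thus not shown to differ from the response of DBA females.

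Slc30a1 and Slc39a14 did not pass in any low isoleucine comparison with control, and Slc30a1 was near the threshold in 2 of them. Slc30a1, the zinc exporter that shares MTF1 control with the metallothioneins, was at 0.20 ± 0.09 in the mean of the 4 classes (adjusted p = 0.064), 0.16 ± 0.18 in DBA males, 0.33 ± 0.18 in DBA females, -0.12 ± 0.18 in B6 males and 0.46 ± 0.18 in B6 females (adjusted p = 0.062). With voom quality weights the mean (0.22, adjusted p = 0.030) and the B6 female value (0.48, adjusted p = 0.032) passed. The B6 female low isoleucine libraries split: libraries 1 and 2, which share a title number, had 14.7 and 12.0 CPM. The other 4 had 25.9 to 33.0 CPM, against 15.8, 17.8 and 22.1 CPM as lowest, median and highest on the control diet. Over all groups, libraries that share a number had a correlation of 0.52 for Slc30a1. Mt2 was 141 and 96.9 CPM in libraries 1 and 2, 366, 387 and 232 CPM in libraries 3, 4 and 5, and 59.5 CPM in library 6. The B6 female value passed without low isoleucine library 1 (0.57, adjusted p = 0.020) or 2 (0.60, adjusted p = 0.011) or control library 3 (0.52, adjusted p = 0.045). The mean over classes passed without any 1 of 9 libraries, with values of 0.22 to 0.24 and adjusted p-values of 0.019 to 0.049: B6 female low isoleucine 1 and 2 and control 3, B6 male low isoleucine 6 and control 5, DBA female low isoleucine 1, and DBA male low isoleucine 2 and 4 and control 5. Slc39a14 was at 0.01 ± 0.07 in the mean (95% interval -0.13 to 0.16), and its class values were -0.19 in DBA males, -0.07 in DBA females, 0.12 in B6 males and 0.19 in B6 females, each ± 0.14.

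High isoleucine gave no call for any of the 5 genes against the control diet. The share of all genes that passed was 0% in the mean of the 4 classes, 0.0134% in DBA males, 0.00669% in DBA females, 4.51% in B6 males and 0% in B6 females. DESeq2 also called 0 of the 5 in each, and at an unadjusted p under 0.05 the number was 1, Slc30a10 in DBA males, at 0.45 ± 0.20 (adjusted p = 0.53) with all 6 high isoleucine libraries above the control mean. In B6 males the metallothioneins were less spread on high isoleucine, with Mt2 at 33.2, 45.7 and 66.5 CPM, against 2.42, 21.1 and 87.8 CPM on the control diet (0.68 ± 0.49, adjusted p = 0.42). Control library 5 weighed on this value, which was 1.46 without it (adjusted p = 0.062), and limma-voom, an alternative added after seeing the data, gave 1.71 (adjusted p = 0.038). Mt1 in B6 males was at 0.81 ± 0.46 (adjusted p = 0.30), and in B6 females it was at -0.63 ± 0.46 (adjusted p = 0.81). In DBA males library 3 held 863 CPM of Mt1 and 729 CPM of Mt2, the highest of all 72 libraries for both, and the other 5 high isoleucine libraries held 143 to 417 CPM and 145 to 273 CPM.

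**Figure D3:**
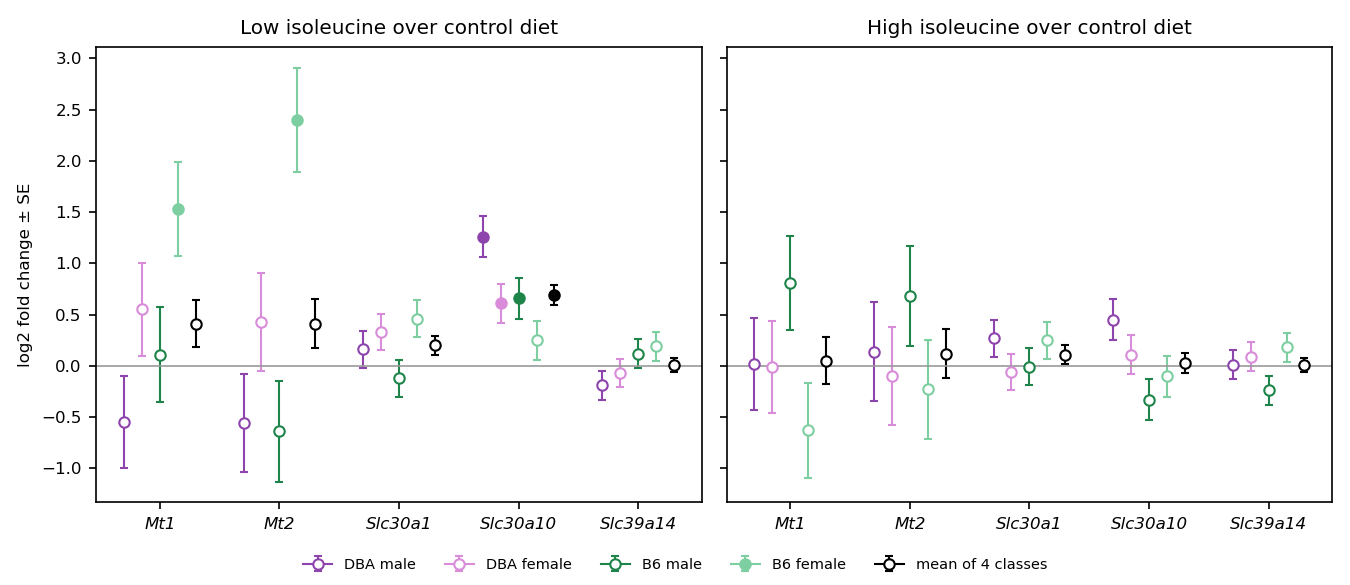
Log2 fold change ± SE of the 5 genes on low isoleucine (left) and high isoleucine (right) over the control diet, for each class and for the mean of the 4 classes. Filled points passed the test. Filled points are Slc30a10 in 3 classes and in the mean (0.69) and Mt1 and Mt2 in B6 females (1.53 and 2.40), all on low isoleucine.

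High isoleucine set directly against low isoleucine uses the same libraries, and its values are given as another view of them. Slc30a10 was lower on high isoleucine, with log2 fold changes of -0.66 ± 0.10 in the mean of the 4 classes (adjusted p = 1.1e-07, with 43.6% of genes passing), -0.82 ± 0.19 in DBA males (adjusted p = 0.0021, 14.3% of genes) and -0.98 ± 0.20 in B6 males (adjusted p = 0.00017, 25.9% of genes). In DBA females it was at -0.50 ± 0.19 (adjusted p = 0.069, 14.9% of genes), and it passed there without high isoleucine library 1 (-0.61) or 4 (-0.61), with voom quality weights (-0.60, adjusted p = 0.011) and with voom without a block (-0.56, adjusted p = 0.036). In B6 females Slc30a10 was at -0.34 ± 0.20 and did not pass (adjusted p = 0.21). In B6 males it had 9.70, 17.2 and 23.4 CPM on high isoleucine and 23.3, 34.7 and 42.7 CPM on low isoleucine, ranges that meet at their ends. In B6 females both metallothioneins were lower on high isoleucine, Mt2 at -2.63 ± 0.51 (adjusted p = 0.00016) and Mt1 at -2.15 ± 0.47 (adjusted p = 0.00068), where 19.1% of genes passed. Mt2 had 22.7, 35.8 and 45.0 CPM on high isoleucine, all below the lowest low isoleucine library at 59.5 CPM. In B6 males Mt2 went the other way, at 1.32 ± 0.49 (adjusted p = 0.040). That call ended without low isoleucine library 2, 3, 4, 5 or 6 or high isoleucine library 1, 3, 5 or 6, with values of 1.10 to 1.35 and adjusted p-values of 0.054 to 0.11, and with summed title numbers (1.22, adjusted p = 0.22). Slc39a14 in B6 males was at -0.36 ± 0.14 (adjusted p = 0.053), and passed without low isoleucine library 3 (-0.40) or 4 (-0.47) or high isoleucine library 4 (-0.45) or 5 (-0.40). Slc30a1 in DBA females was at -0.39 ± 0.18 (adjusted p = 0.13), and passed with quality weights and in the fit within the class (lowest adjusted p = 0.020).

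All 5 genes were higher in DBA than in B6 livers on the control diet, the metallothioneins by far the most. Averaged over sexes, Mt2 was 7.41-fold higher in DBA (2.89 ± 0.36, adjusted p = 1e-09) and Mt1 5.08-fold higher (2.35 ± 0.34, adjusted p = 3.1e-08). Slc30a1 was higher by 0.63 ± 0.13 (adjusted p = 3.4e-05), Slc30a10 by 0.44 ± 0.14 (adjusted p = 0.0073) and Slc39a14 by 0.33 ± 0.10 (adjusted p = 0.0055). Of all genes tested, 45.4% passed in this comparison and 22.9% were higher in DBA. All 5 calls were kept in every refit, leaving out single libraries included. The reads were aligned to GRCm38, the B6 genome, and the part of strain variants in these differences was not tested.

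Mt2 in males showed the widest strain gap. DBA males had 177, 237 and 448 CPM on the control diet, against 2.42, 21.1 and 87.8 CPM in B6 males (3.22 ± 0.52, adjusted p = 9.7e-07, where 40.5% of genes passed). The size of this gap depended on the fit: it was 4.0 without B6 male control library 5. It was 4.28 with the title number as a block in limma-voom, and it passed each time. In females Mt2 had 122, 215 and 361 CPM in DBA and 23.2, 32.3 and 83.7 CPM in B6 (2.56 ± 0.51, adjusted p = 5.2e-05, where 32.3% of genes passed). In both sexes all 6 DBA libraries lay above all 6 B6 libraries. Mt1 was higher by 3.05 ± 0.49 in males (3.67 with the block in limma-voom) and by 1.64 ± 0.46 in females. For Mt1, 1 DBA female library, at 131 CPM, lay within the B6 range, whose top was 148 CPM. Slc30a1 had 25.3 to 35.8 CPM in DBA females and 15.8 to 22.1 CPM in B6 females, with no overlap (0.73 ± 0.18, adjusted p = 0.0011). In males it was at 0.53 ± 0.18 (adjusted p = 0.014), a call lost without B6 male control library 1 (0.43, adjusted p = 0.058) or DBA male control library 5 (0.42, adjusted p = 0.063) and with summed title numbers (0.54, adjusted p = 0.080).

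Slc30a10 differed by strain in females (0.72 ± 0.20, adjusted p = 0.0029) and was at 0.16 ± 0.20 in males (adjusted p = 0.54). Slc39a14 was at 0.30 ± 0.14 in males (adjusted p = 0.087, and 0.38 with an adjusted p of 0.040 without B6 male control library 2). In females it was at 0.36 ± 0.14 (adjusted p = 0.045), and the call was lost with the title number as a block (0.35, adjusted p = 0.12), with summed numbers (0.38, adjusted p = 0.071) and without B6 control library 1, 2, 5 or 6 or DBA control library 3, 4, 5 or 6 (0.30 to 0.38, adjusted p-values of 0.052 to 0.13). Markers of other cell types also differed by strain on the control diet, where 22.5% of all genes were lower in DBA and 22.9% higher. Kupffer cell markers were lower in DBA in 5 of 7 and higher in 0. Infiltrating macrophage markers were lower in 4 of 6, stellate cell markers in 5 of 6 and cholangiocyte markers in 4 of 5. Erythroid markers were higher in 3 of 3. Over all diets the erythroid sums spanned 78.2 to 973 CPM in DBA and 106 to 546 CPM in B6, and the Kupffer sums spanned 89.7 to 286 CPM in DBA and 69.4 to 807 CPM in B6. Their part in the strain differences was not tested.

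The strain difference was also seen on the experimental diets, contrasts chosen after seeing the data. On low isoleucine 4 of 5 genes were higher in DBA, with 44.5% of all genes passing: Mt2 by 1.94 ± 0.35, Mt1 by 1.53 ± 0.33, Slc30a10 by 0.92 ± 0.14 and Slc30a1 by 0.71 ± 0.13, whereas Slc39a14 was at 0.04 ± 0.10. On high isoleucine all 5 were higher, with 50.4% of all genes passing: Mt2 by 2.68 ± 0.36, Mt1 by 2.26 ± 0.33, Slc30a10 by 0.93 ± 0.14, Slc30a1 by 0.62 ± 0.13 and Slc39a14 by 0.41 ± 0.10. Among females on low isoleucine the metallothioneins of both strains overlapped, with Mt2 at 321 ± 116 CPM in DBA and 214 ± 139 CPM in B6 (SD, n = 6 each). Among males on the same diet Mt2 was at 182 ± 30.4 CPM in DBA and 18.4 ± 16.0 CPM in B6, and all 6 DBA libraries lay above all 6 B6 libraries.

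**Figure D4:**
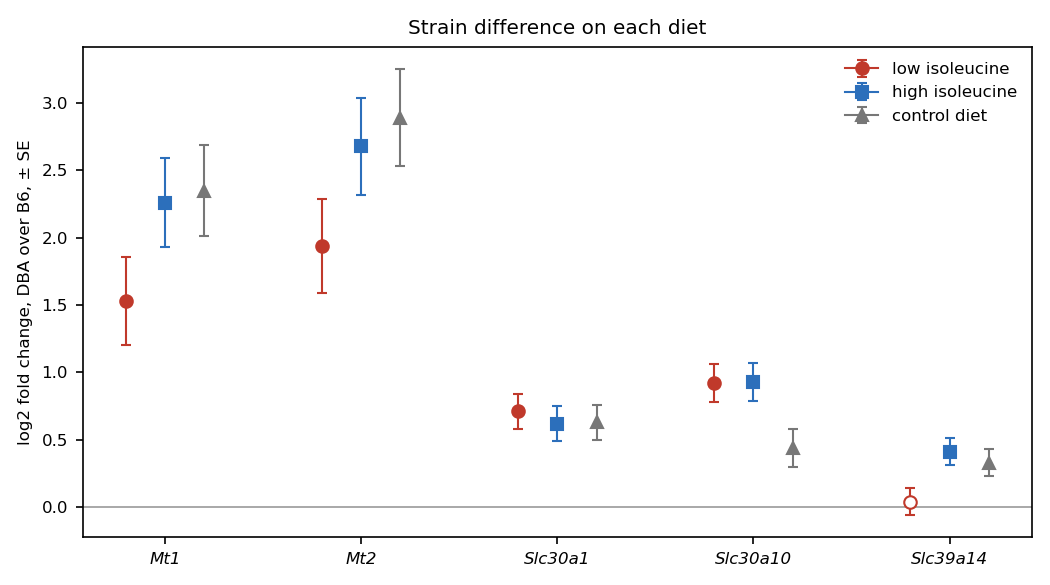
Log2 fold change ± SE of DBA over B6, averaged over sexes, on low isoleucine (red circles), high isoleucine (blue squares) and the control diet (grey triangles), with filled symbols where the test passed. The metallothioneins lie between 1.53 and 2.89 and the transporters at or below 0.93, and the open symbol is Slc39a14 on low isoleucine.

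Slc30a10 differed between the sexes on the control diet, and of the 5 genes it alone passed. Levels were lower in males than in females, at -0.70 ± 0.14 in log2 units (adjusted p = 8.8e-05), where 26.2% of all genes passed. In DBA it had 16.7, 22.4 and 34.7 CPM in males and 33.4, 47.6 and 55.3 CPM in females (-0.97 ± 0.20, adjusted p = 0.00011, 25.7% of genes). Only the highest male library, at 34.7 CPM, reached the lowest female library, at 33.4 CPM. In B6 it had 15.9, 21.5 and 28 CPM in males and 19.1, 27.7 and 40.0 CPM in females (-0.42 ± 0.20, adjusted p = 0.14, 17.4% of genes). In B6 none of the 5 passed, with 2 at an unadjusted p under 0.05 and 0 called by DESeq2, and Mt1 there was at -1.0 ± 0.46 (adjusted p = 0.13). Without B6 male control library 5, the one with most Mt1 of its group at 104 CPM, Mt1 passed (-1.54, adjusted p = 0.019), as it did with quality weights and with voom without a block (lowest adjusted p = 0.022), where Mt2 passed as well (adjusted p = 0.042). Mt2 was at -0.16 ± 0.34 over both strains (adjusted p = 0.77), Slc30a1 at 0.23 ± 0.13 (adjusted p = 0.18) and Slc39a14 at 0.15 ± 0.10 (adjusted p = 0.27). Of all genes tested, 12.9% were lower in males. Kupffer cell markers were lower in males in 7 of 7, sinusoidal endothelium markers in 4 of 6 and stellate cell markers in 4 of 6. In each of these lists 0 were higher, and the part of these markers in the result was not tested.

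Ordered by mean level, the 12 groups split once for each metallothionein. Mt1 ran from 375 ± 130 CPM in DBA females on low isoleucine to 232 ± 63.9 CPM in DBA males on low isoleucine over 7 groups, the 6 DBA groups and B6 females on low isoleucine, with no neighbours further apart than the larger of their SDs. The next group, B6 females on the control diet, was at 82.2 ± 47.5 CPM, and the order ended with B6 males on the control diet at 41.2 ± 37.1 CPM. Mt2 had the same break, between 182 ± 30.4 CPM in DBA males on low isoleucine and 46.2 ± 11.6 CPM in B6 males on high isoleucine, and ended with B6 males on low isoleucine at 18.4 ± 16.0 CPM. Slc30a10 was highest in DBA females on low isoleucine (70.7 ± 9.52 CPM), followed by DBA males on low isoleucine (56.5 ± 14.1 CPM), and lowest in B6 males on high isoleucine (16.7 ± 4.38 CPM). Of its 11 neighbouring pairs 2 lay further apart than the larger SD: those 2 leading groups, and DBA females on the control diet (46.3 ± 8.51 CPM) over B6 females on low isoleucine (33.4 ± 7.66 CPM). Slc30a1 ran from 39.8 ± 7.69 CPM in DBA males on high isoleucine to 18.1 ± 2.31 CPM in B6 females on the control diet with 0 such gaps. All 6 DBA groups stood above all 6 B6 groups in mean Slc30a1. Slc39a14 ran from 189 ± 31.1 CPM in DBA males on high isoleucine to 129 ± 25.5 CPM in B6 males on high isoleucine, with 1 gap beyond the larger SD, B6 females on high isoleucine (152 ± 11.7 CPM) over B6 females on the control diet (134 ± 12.8 CPM).

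Within groups, Mt1 and Mt2 varied together from library to library. After removal of group means, log2 CPM of the pair had a Pearson r of 0.91 and a Spearman rho of 0.90 over 72 libraries, with adjusted permutation p-values of 1e-04, the smallest these permutations can give over 10 pairs. The r was 0.93 in DBA males, 0.93 in DBA females, 0.98 in B6 males and 0.80 in B6 females, and 0.89 without the 2 libraries farthest from the median of Mt1. Slc39a14 ran against Mt1 (r = -0.38, permutation adjusted p = 0.0077; rho = -0.48, permutation adjusted p = 2e-04), with negative r in all 4 classes (-0.49 to -0.26) and -0.43 without the 2 farthest libraries. Against Mt2 it had r = -0.29 (permutation adjusted p = 0.065) and rho = -0.41 (permutation adjusted p = 0.0033). Slc30a1 and Slc30a10 had r = 0.30 (permutation adjusted p = 0.042) and rho = 0.31 (permutation adjusted p = 0.037), and the r was -0.11 in DBA females and 0.37 to 0.45 in the other classes. The other 6 pairs did not pass by either measure. Libraries that share a title number are not independent if the number marks an animal, which the labels do not say.

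Library measures moved with the metallothioneins too. The share of counts from mitochondrially encoded genes had a group-centred r of 0.43 with Mt1 (rho 0.48, permutation adjusted p-values of 0.0055 and 0.0012) and 0.37 with Mt2 (rho 0.44, permutation adjusted p-values of 0.026 and 0.0026), adjusted over 15 relations. With Slc30a1 it had r = -0.35 (rho -0.38, permutation adjusted p-values of 0.031 and 0.012), and without the 2 libraries farthest from the median of the share the 3 values were 0.44, 0.35 and -0.43. Mt1 had r = -0.31 with the TMM factor (rho -0.38, permutation adjusted p-values of 0.031 and 0.0076), and -0.36 without the 2 farthest. By rho alone, Mt2 also passed with the TMM factor (-0.33, permutation adjusted p = 0.024) and Slc39a14 with the mitochondrial share (-0.30, permutation adjusted p = 0.047). Total counts passed with none of the 5 genes. Whether RNA quality takes part in the spread of the metallothioneins was not tested.

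**Figure D5:**
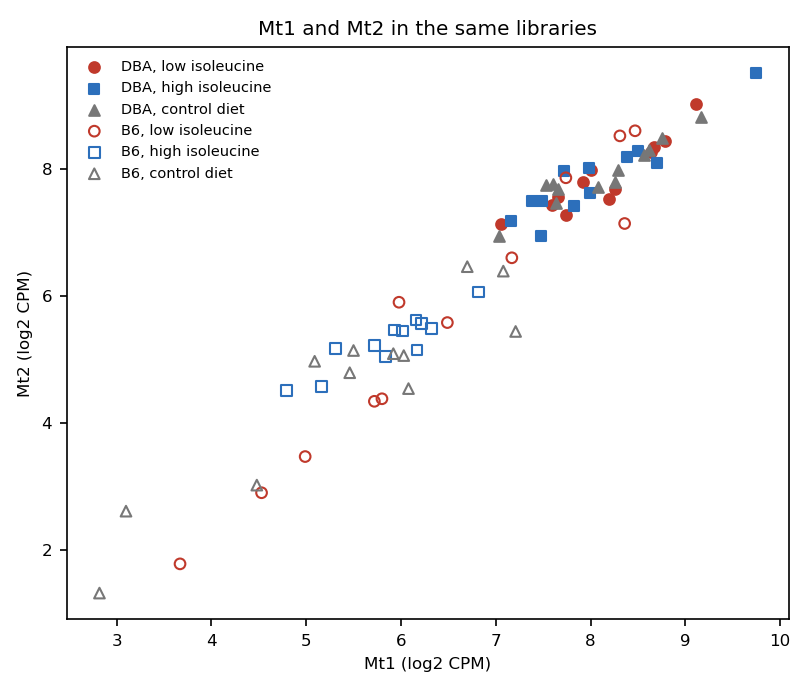
Log2 CPM of Mt2 against log2 CPM of Mt1 in the 72 libraries, with filled symbols for DBA, open symbols for B6 and shape and colour for diet. The libraries lie along 1 line, with r = 0.91 after removal of group means, and the low end holds B6 libraries.

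By likeness of log2 CPM centred on class means over 72 libraries, the gene most like Mt1 was Mt2 (r = 0.92), followed by Dnajc30 (0.78), Xab2 (0.76), Zfp777 (0.74) and Smn1 (0.74). After Mt1, those most like Mt2 were Ubox5 (0.71), Dnajc30 (0.70), H3f3b (0.69) and Dcaf15 (0.68). Among those most like Slc30a10 were Dtx4 (0.81), Gramd4 (0.78), Arl4a (0.77) and Slc45a3 (0.77). For Slc30a1 they were the phosphatase genes Ppm1a (0.76) and Ppm1b (0.71), then Trim25 (0.70), Arih2 (0.67) and Tapt1 (0.66). For Slc39a14 they were Epg5 (0.65), Usp40 (0.64), Dusp11 (0.64), Rprd1a (0.64) and Ube4a (0.64).

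Of the other zinc exporters and importers tested, some rose and some fell on low isoleucine, in a comparison where 17.8% of all genes rose and 20% fell. Of 8 other zinc exporters 6 were tested, and in the mean of the 4 classes 3 rose and 0 fell (median log2 fold change 0.08): Slc30a3 by 0.67 ± 0.21, at 5.57 CPM or less in every library, Slc30a4 by 0.18 ± 0.07 and Slc30a7, which loads the secretory pathway, by 0.13 ± 0.05. Of 13 other zinc importers 12 were tested, 2 rose and 4 fell (median -0.13). Slc39a1, a plasma membrane importer, fell by 0.21 ± 0.04 on the log2 scale, Slc39a9 by 0.24 ± 0.06, Slc39a11 by 0.44 ± 0.08 and Slc39a5 by 0.59 ± 0.20. Slc39a6 rose by 0.38 ± 0.11 and Slc39a7, which releases zinc from the endoplasmic reticulum, by 0.13 ± 0.05. Levels of Slc39a5 and Slc39a6 were low, with medians of 0.731 and 2.04 CPM over all libraries. Mtf1, which encodes the metal sensor, did not pass (7.85 to 19.2 CPM over all libraries). Mt3 was at 0.0434 CPM or less and Mt4 had no count in any library. Of 17 copper and manganese handling genes 1 rose and 3 fell (median -0.06): Sco2, a copper chaperone of cytochrome oxidase, rose by 0.47 ± 0.09, and Slc31a1, the high-affinity copper importer, fell by 0.23 ± 0.05, Slc31a2 by 0.25 ± 0.06 and Steap4, a metalloreductase, by 0.61 ± 0.10. The median over all genes tested was -0.003.

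Genes induced by glucocorticoids, which are among the inducers of metallothioneins, were higher on low isoleucine in 8 of 11 and lower in 0 (median 0.58), in the mean of the 4 classes, where 17.8% of all genes were higher. Zbtb16 rose by 1.74 ± 0.30, Fkbp5, a receptor co-chaperone, by 0.91 ± 0.13, and Tat, tyrosine aminotransferase, by 0.59 ± 0.14. In B6 females 3 of 11 rose and 0 fell (median 0.73), with 9.53% of all genes higher and 11.3% lower there, Tat by 1.45 ± 0.29, Cebpd by 1.33 ± 0.45 and Fkbp5 by 0.92 ± 0.27. Of 22 genes of the acute phase and of interleukin 6 signalling, 7 rose and 5 fell in the mean of the classes (median -0.01), among them Hamp, the iron hormone hepcidin, up by 0.93 ± 0.29 and the serum amyloid gene Saa4 down, at -0.86 ± 0.10. In B6 females 0 of the 22 rose and 4 fell. Of 9 oxidative stress genes 8 were tested, and 0 rose and 3 fell both in the mean (median -0.14) and in B6 females (median 0.01), where Osgin1 was at -1.95 ± 0.32. Neither Mt1 nor Mt2 passed in the mean of the classes, and the part of these lists in the metallothionein result was not tested.

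Between the strains the lists moved in both directions, in a comparison where 22.9% of all genes were higher in DBA and 22.5% lower. On the control diet 0 of 11 glucocorticoid-induced genes were higher in DBA and 7 were lower (median -0.64), with Zbtb16 at -2.66 ± 0.45 and Klf9 at -0.64 ± 0.09. Of the 8 oxidative stress genes 0 were higher and 6 lower (median -0.37), Hmox1, heme oxygenase, at -1.39 ± 0.17. Of 22 acute phase genes 8 were higher and 3 lower (median 0.00). Mtf1 was lower in DBA (-0.21 ± 0.08, adjusted p = 0.021). Of 12 other zinc importers 4 were higher and 3 lower, Slc39a5 at -2.43 ± 0.27 and Slc39a2 at 0.92 ± 0.18. Levels of both were low, with medians of 0.731 and 3.0 CPM over all libraries. Of 6 other exporters 2 were higher and 0 lower. Between males and females on the control diet, where 13.3% of all genes were higher in males and 12.9% lower, 2 other exporters were higher in males and 1 lower, and 1 importer was higher and 4 lower. Of the glucocorticoid-induced genes 0 were higher in males and 5 lower (median -0.36), Fkbp5 at -1.0 ± 0.19.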

How the data were processed

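Liver RNA was extracted with TRIzol and sequenced on a NovaSeq6000, per the labels' protocols. The authors deposited expected counts per Ensembl gene, aligned to GRCm38.p5 per the labels. Which aligner and counter were used is not given in the sources here. R 3.4.3, limma and edgeR appear in the submitters' processing notes. Of the nonzero values 9.56% were not whole, and all were rounded. Totals ran from 13.0 M to 51.1 M (mega) counts in a library. 0 columns of the table stayed unused. The authors' deposited fold-change tables carry comparison codes that the labels do not define, and were not used.

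Genes passing filterByExpr (14954) were scaled by TMM (factors 0.84 to 1.14) and fitted with edgeR 4.0.16 (quasi-likelihood, robust) in R 4.3.3, as 1 model of 72 libraries with 12 group means and a common biological coefficient of variation of 0.21. P-values were adjusted by Benjamini-Hochberg over all genes tested, and a result passed at 0.05. Positive log2 fold changes mean higher in the first-named group. Replicate numbers follow the order of deposit and pair nothing between groups. Within a group, libraries 1 and 2, 3 and 4, and 5 and 6 share a title number. Leaving out 1 library thus keeps the other with its number. The number in the title, which 2 libraries of a group share within each strain and sex, served as a block or was summed over. The block used limma 3.58.1 voom with duplicateCorrelation (consensus correlation 0.244). The blocked fit thus differs from the main fit in method as well as in the block. Other alternatives were RLE and upper-quartile scaling, no filter, DESeq2 1.42.0, voom with quality weights or without a block, fits within a class, and leaving out each library. Correlations used log2 CPM with a prior count of 2, with group means removed, and 1e+05 permutations within groups. Motifs were searched in RefSeq promoters, which matched 4 of the 5 genes. The fit was tested on simulated data with independent libraries. That test cannot speak to the likeness of libraries that share a title number.

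The genes named are the 5 members, the 5 genes most like each by Pearson r among genes averaging 1 CPM or more, of which 1 is not reported here, and genes of the lists that passed. Members and lists were chosen with earlier results of these data known, and lists are described by counts and medians without a test of their own.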

Additional observations from a re-analysis of the deposited data

Results flagged for a closer look

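In B6 males on high isoleucine, library 6 held 113 CPM of Mt1, and the other 5 held 52.8 to 74.5 CPM. In DBA males on high isoleucine, library 3 held 729 CPM of Mt2, and the other 5 held 145 to 273 CPM. In B6 females on low isoleucine, library 5 held 47.7 CPM of Slc30a10, against a group median of 32.2 CPM. In B6 females on the control diet, library 2 held 83.7 CPM of Mt2, against a group median of 32.3 CPM. Each stood further from its neighbour than Dixon's 95% limit allows, in 4 of 60 gene and group combinations examined, where chance gives about 1 in 20.

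Averaged over strains, the effect of low isoleucine on Mt2 differed between the sexes, by -2.01 ± 0.49 on the log2 scale, male minus female (edgeR, adjusted p = 0.0067). This call was lost with the title number as a block in limma-voom (-1.57, adjusted p = 0.13) and with summed numbers (-1.93, adjusted p = 0.14). Within B6 the same difference was -3.04 ± 0.70 (adjusted p = 0.018), in a contrast chosen after seeing the data, and it was lost with the block (-2.19, adjusted p = 0.34), with summed numbers (adjusted p = 0.31), with voom without a block (-2.25, adjusted p = 0.11) and without B6 male control library 5 (-2.26, adjusted p = 0.093). Of the 6 B6 female libraries on low isoleucine 6 lay above the control mean, and of the 6 B6 male libraries 1 did.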

How the results depend on the processing

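Of 38 called values of the 5 genes over all comparisons, RLE scaling and DESeq2 lost 0, upper-quartile scaling 1, quality weights 1, voom without a block 2, no filter 4, the title-number block 5, summed title numbers 8, and fits within a class 2 of 10. Calls gained were 7 with quality weights, 4 with voom without a block, 1 with DESeq2, 1 with fits within a class and 0 with the others. None turned direction in these refits. Without the filter Slc30a10 on low isoleucine was at 0.68 in B6 males (adjusted p = 0.056) and 0.61 in DBA females (0.058), and within the class it was at 0.66 in B6 males (0.059). With the title-number block, a replicate block whose meaning the labels do not give, it was at 0.68 in B6 males (0.12) and 0.62 in DBA females (0.083), the sex difference of Mt2 at -1.57 (0.13) and Mt2 in B6 males at 0.05. With summed numbers Mt1 in B6 females was at 1.52 (0.085), Slc30a10 at 0.71 in B6 males (0.057) and 0.60 in DBA females (0.069), the sex difference of Mt2 at -1.93 (0.14) and the mean effect on Slc39a14 at -0.001, which voom without a block put at -0.0003. Leaving out single libraries gave 0.57 to 0.75 for Slc30a10 in B6 males, 0.53 to 0.67 in DBA females, -0.03 to 0.04 for the mean effect on Slc39a14, -0.04 to 0.09 for its strain difference on low isoleucine, and -0.23 to 0.65 for Mt1 and -1.21 to 0.14 for Mt2 in B6 males on low isoleucine. The cause of these changes was not tested, and 9 of 107 uncalled values, none over 0.64 in size, changed sign under some alternative other than leaving out a library. The number of all genes passing moved by over 1.5 times mostly with the block and with summed numbers. For low isoleucine over control B6 females had 3115 (1852 with the block, 1626 summed), B6 males 748 (238, 213, and 469 without filter, 335 within the class, 1715 with quality weights), DBA females 1760 (827, 669, and 2812 with quality weights) and DBA males 2644 (1649, 1290). For its sex difference they were 999 (300, 159, 611 without filter, 2265 with quality weights), within B6 124 (3, 5, 257 with DESeq2, 45 without filter, 1277 with quality weights), and for its strain difference 208 (11, 16, 346 with DESeq2, 109 without filter, 370 with quality weights). For high isoleucine over control they were 674 in B6 males (136, 59, 386 with quality weights, 311 without filter, 195 within the class), 2 in DBA males (0, 0, 14 with DESeq2), 1 in DBA females (0, 0, 3 with DESeq2), 0 in the mean (5 with DESeq2) and 0 in B6 females (2 with DESeq2). For high over low isoleucine B6 females had 2857 (1735, 1478), B6 males 3869 (2476, 1791), DBA females 2223 (1177, 951, 3373 with quality weights) and DBA males 2137 (1251, 940), and for males over females 3920 (2612, 2570), in B6 2605 (1532, 1511) and in DBA 3849 (2529, 2358).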
